A study of Homo sapiens with 6 samples.

Results

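The genes described here carry an interferon signal from the cell surface to the nucleus: the receptor subunits IFNAR1, IFNAR2, IFNGR1 and IFNGR2, the kinases JAK1 and TYK2, and the transcription factors STAT2, IRF9 and IRF1. Every probe set whose platform annotation names exactly 1 of these 9 genes was taken. This gave 22 of the 49395 probe sets on the array, for 8 of the 9 genes, while STAT2 was not analysed here. Total RNA of ES-2, a human line established from an ovarian cancer, was profiled on 6 Affymetrix PrimeView arrays. By their titles, 3 arrays came from cells overexpressing CADM1, a surface protein with immunoglobulin domains through which cells adhere, and 3 from control cells, which the series calls mock controls. The stated purpose was to look for regulatory pathways linked to CADM1 as a tumour suppressor. The source names of 2 overexpression arrays read CADM2 and CADM3, and no label gives a vector, clone, batch or separate culture. The p-values therefore rest on array-to-array spread, and whether that spread is biological or technical is not known.

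Type I interferons bind a receptor made of IFNAR1 and IFNAR2, whose cytoplasmic tails hold TYK2 and JAK1. Interferon gamma binds IFNGR1 and IFNGR2, which hold JAK1 and JAK2. The kinases phosphorylate STAT proteins, which enter the nucleus. STAT proteins that include STAT2 join IRF9 there in a complex that binds the interferon-stimulated response element (ISRE) of antiviral genes. Gamma-activated STAT dimers bind a different element (GAS), and IRF1 is a classical gene switched on through it. These are mRNA measurements, and phosphorylation of the kinases and STAT proteins was not measured.

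The promoters of the members are shown because the pathway feeds back on some of its own genes. Promoters of 8 of the 9 members were found in the RefSeq table (GRCh38.p14), all but that of IFNAR2. The 250 bases before each start listed there were searched on both strands for TTCNNNGAA, the core of GAS, and for GAAANNGAA, a core of ISRE. For IFNGR2 the listed start puts the whole window inside the annotated gene, and for IFNGR1 part of it. Sequence before the annotated gene start was thus not searched for IFNGR2 and only in part for IFNGR1. Among the member windows only those of IRF9 and IRF1 held a GAS match, and none held an ISRE match. For comparison, 6.2% of the 14425 promoters of measured genes held a GAS match and 5.98% an ISRE match. The IRF9 and IRF1 windows are printed for their matches, that of JAK1 because it had the single called probe set, and that of the interferon target IFI27 as a contrast. Each reads 5′ to 3′ on the strand of its gene, with any match in capitals. The windows are chr14:24161015-24161264 (+) for IRF9, chr5:132490774-132491023 (-) for IRF1, chr1:65067747-65067996 (-) for JAK1 and chr14:94110486-94110735 (+) for IFI27.
IRF9: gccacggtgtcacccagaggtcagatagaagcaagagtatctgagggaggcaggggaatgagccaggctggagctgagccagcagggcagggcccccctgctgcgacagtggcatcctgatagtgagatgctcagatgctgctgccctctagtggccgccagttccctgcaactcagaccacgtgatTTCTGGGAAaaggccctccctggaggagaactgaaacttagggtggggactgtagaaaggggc
IRF1: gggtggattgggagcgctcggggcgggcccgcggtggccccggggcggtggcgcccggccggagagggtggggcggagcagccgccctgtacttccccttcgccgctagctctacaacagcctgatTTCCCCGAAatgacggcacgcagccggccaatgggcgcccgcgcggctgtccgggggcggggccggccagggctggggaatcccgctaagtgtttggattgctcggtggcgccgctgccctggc
JAK1: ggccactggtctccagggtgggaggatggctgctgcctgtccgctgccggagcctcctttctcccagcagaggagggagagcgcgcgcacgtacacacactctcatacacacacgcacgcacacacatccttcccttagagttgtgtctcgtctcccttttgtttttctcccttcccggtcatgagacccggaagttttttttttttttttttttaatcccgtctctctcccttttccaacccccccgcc
IFI27: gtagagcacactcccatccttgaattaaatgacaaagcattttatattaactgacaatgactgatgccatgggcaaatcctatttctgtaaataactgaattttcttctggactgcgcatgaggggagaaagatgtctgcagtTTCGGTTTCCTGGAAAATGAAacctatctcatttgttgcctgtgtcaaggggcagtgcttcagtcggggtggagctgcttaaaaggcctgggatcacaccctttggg
The IRF9 match, TTCTGGGAA, begins 63 bases before the start, and the IRF1 match, TTCCCCGAA, begins 124 bases before it. IFI27 holds 1 GAS match that overlaps each of 2 ISRE matches, so its capitals form a single block. A match describes letters, not a bound site.

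CADM1 itself went against the labels. Its brightest probe set, 11728805_a_at, read 8.14, 8.10 and 8.18 in the arrays labelled overexpression and 10.24, 10.29 and 10.23 in those labelled control. The 5 dimmer CADM1 probe sets were not called, with log2 fold changes from -0.06 to 0.17. Groups are therefore named by their labels, and every difference is labelled overexpression minus labelled control on the log2 scale. That scale is itself an inference from the range of the deposited values. Among the markers checked, the keratins KRT7, KRT8 and KRT18 and vimentin (VIM) averaged between 12.47 and 13.30 in either group, and the ovarian cancer genes MSLN and FOLR1 between 9.96 and 10.91. Other epithelial and ovarian markers were lower: KRT19, EPCAM, CDH1, PAX8, WT1 and MUC16 averaged between 2.90 and 5.55. The mesenchymal markers other than VIM were also lower, from 4.17 for DCN through COL1A1 and CDH2 to 9.10 for FN1. The 6 leukocyte markers ran from 2.90 for PTPRC to 7.48 for CD68, and whether low levels exceed background was not assessed. Of all the markers the endothelial gene CDH5 alone was called, and it fell by 0.27 (limma, adjusted p = 0.0475).

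Across the 22 probe sets, the mRNAs of the interferon signalling genes differed little between the groups. A probe set was called where limma's adjusted p, over all 49293 probe sets other than array controls, was under 0.05. One member probe set was called, 11717686_a_at for JAK1, which rose. In bulk RNA a change in some of the cells cannot be told apart from a change in all of them. Over all probe sets 1.49% were called, 0.605% higher and 0.887% lower, so the members' 4.55% rests on a single probe set. An unadjusted p under 0.05 was reached by 5 member probe sets, 3 of kinases and 2 of IRF9, or 22.7% against 12.8% of all. The groups did not overlap in 5 of the 22 (22.7%), 3 higher and 2 lower, against 17.4% of all probe sets (8.5% higher and 8.94% lower). The median difference was -0.0040 for the members and 0.0032 for all probe sets, and the median size was 0.057 against 0.051.

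**Figure D1:**
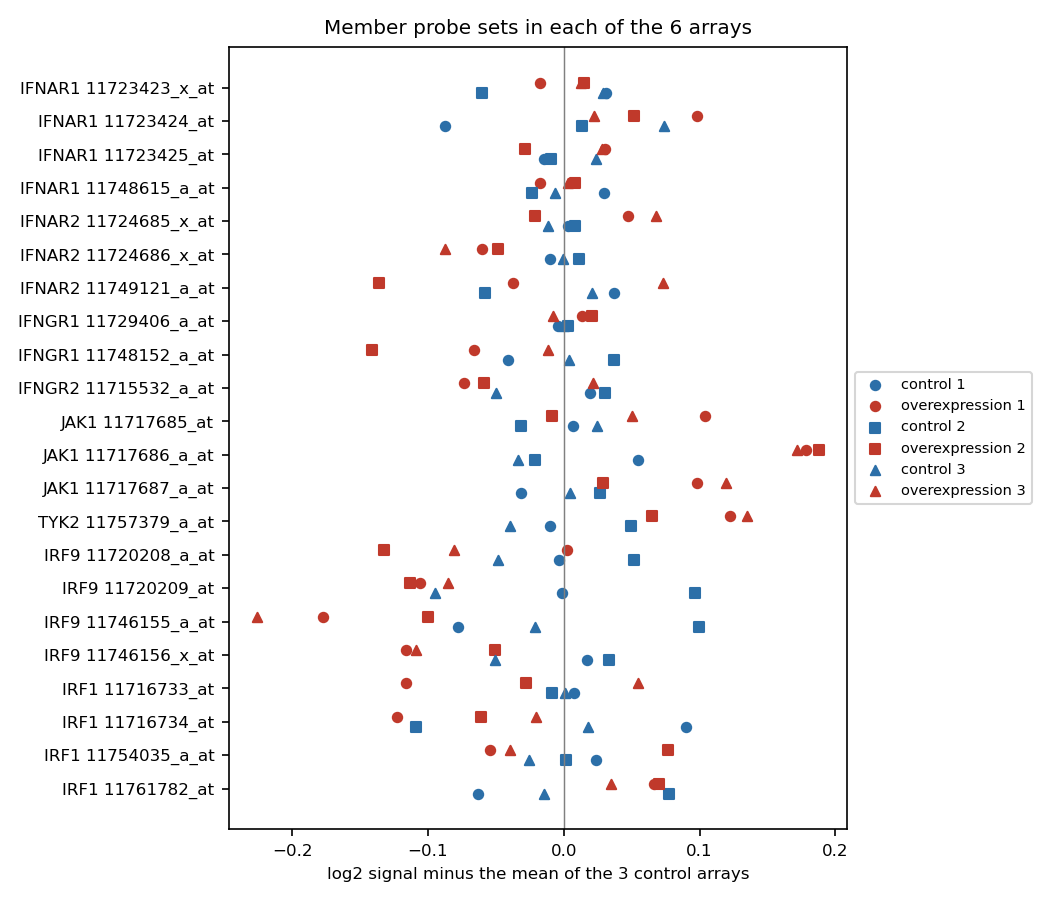
Log2 signal of each of the 22 member probe sets in each array, minus the mean of the 3 control arrays for that probe set. Red symbols are the arrays labelled overexpression, blue those labelled control, and the symbol shape gives the replicate number; JAK1 11717686_a_at is the row in which red and blue lie farthest apart above 0.

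The receptor subunits gave no call and no common direction. Their 10 probe sets were split into 5 higher and 5 lower, with differences from -0.07 to 0.06 and a median of 0.0007. All of their 95% intervals lay between -0.17 and 0.15, and the lowest adjusted p was 0.394 (limma). The widest bound amounts to a 1.13-fold difference, so larger differences lie outside every receptor interval. These intervals are not adjusted for the number of probe sets. They come from the fit with a mean-variance trend, and intervals from a fit without it were not compared.

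IFNAR1, the type I receptor chain that holds TYK2, was read by 4 probe sets. Its brightest, 11748615_a_at, read 9.33, 9.36 and 9.35 in the arrays labelled overexpression and 9.38, 9.33 and 9.34 in the control arrays. The groups overlapped fully, with a difference of -0.0021 ± 0.028 (SE) and a 95% interval of -0.06 to 0.06 (limma, adjusted p = 0.986). The other IFNAR1 probe sets gave 0.0035, 0.06 and 0.01.

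IFNAR2, the type I chain that holds JAK1, was read by 3 probe sets, which did not share 1 sign. Probe set 11724686_x_at read 7.82, 7.83 and 7.79 in the arrays labelled overexpression and 7.87, 7.89 and 7.88 in the control arrays. It was the single receptor probe set whose groups did not overlap, and its difference of -0.07 was not called (limma, adjusted p = 0.507). The second probe set of this type, 11724685_x_at, gave 0.03 and 11749121_a_at gave -0.03. Probe sets of the _x_at type can match several transcripts.

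The interferon gamma receptor chains were read by 3 probe sets, and none was called. IFNGR1, the ligand-binding chain, read 10.29, 10.30 and 10.27 in the arrays labelled overexpression and 10.27, 10.28 and 10.28 in the control arrays with 11729406_a_at. That difference, 0.0088, had a 95% interval of -0.04 to 0.06. Its second probe set, 11748152_a_at, read 9.54, 9.46 and 9.59 against 9.56, 9.64 and 9.61. Here 1 array labelled overexpression lay above the lowest control array, and the difference of -0.07 was not called (limma, adjusted p = 0.394). IFNGR2, the chain that joins IFNGR1 on ligand binding, read 9.47, 9.48 and 9.56 against 9.56, 9.57 and 9.49, a difference of -0.04 with overlapping groups (limma, adjusted p = 0.709).

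IFNAR2, IL10RB, IFNAR1 and IFNGR2 are consecutive protein-coding genes in that order on chromosome 21 in the RefSeq annotation. IL10RB, a chain of the interferon lambda and interleukin 10 receptors that was not a member, gave 0.03 (limma over genes, adjusted p = 0.761). None of the 4 neighbouring genes was called.

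The kinases stood on the higher side, with all 4 probe sets above 0 and a median of 0.09. Of all 49293 probe sets 25542 were above 0. Of the 4 kinase probe sets 3 read JAK1 in the same RNA samples and are not replicates of the condition. JAK1, the kinase used by both receptor types, had 3 probe sets. Probe set 11717686_a_at read 9.04, 9.05 and 9.03 in the arrays labelled overexpression and 8.91, 8.84 and 8.83 in the control arrays. All 3 overexpression arrays were higher than all 3 control arrays, by a gap wider than the range within either group. It rose by 0.18 ± 0.032 (SE), a ratio of 1.13, with a 95% interval of 0.11 to 0.25 (limma, adjusted p = 0.0113).

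The other JAK1 probe sets gave smaller differences of the same sign. Probe set 11717687_a_at read 8.80, 8.73 and 8.82 against 8.67, 8.72 and 8.70, groups that just failed to overlap, with a difference of 0.08 (limma, adjusted p = 0.321). The brightest, 11717685_at, read 10.29, 10.18 and 10.24 against 10.20, 10.16 and 10.21. Its groups overlapped, and the difference was 0.05 with a 95% interval of -0.02 to 0.11 (limma, adjusted p = 0.546). Within each array, 11717686_a_at minus 11717685_at differed by 0.13 between the groups (two-sided exact permutation test, p = 0.10, the smallest that 3 against 3 arrays allow, and 0.84 after Benjamini-Hochberg adjustment over 14 such pairs). A p under 0.05 was out of reach for that test, so it cannot decide whether the 2 probe sets differ. The call for JAK1 rests on 1 of its 3 probe sets. Taking the mean of all 3 instead gave 0.10 with a 95% interval of 0.05 to 0.15, which was called over genes (limma, adjusted p = 0.0404).

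The JAK1 call was lost when the variance was modelled without a mean-variance trend (adjusted p = 0.258). It was also lost when the first (0.0737) or second (0.0561) array labelled overexpression was left out, or the second control array (0.0558), while the difference stayed between 0.16 and 0.21 over all 13 alternatives.

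TYK2, the kinase held by IFNAR1, was read by 1 probe set, 11757379_a_at. It read 8.86, 8.80 and 8.87 in the arrays labelled overexpression and 8.73, 8.79 and 8.70 in the control arrays. The lowest overexpression array lay just above the highest control array. The difference of 0.11 ± 0.035 (SE) had a 95% interval of 0.03 to 0.18 and was not called (limma, adjusted p = 0.169; unadjusted p = 0.00754).

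**Figure D2:**
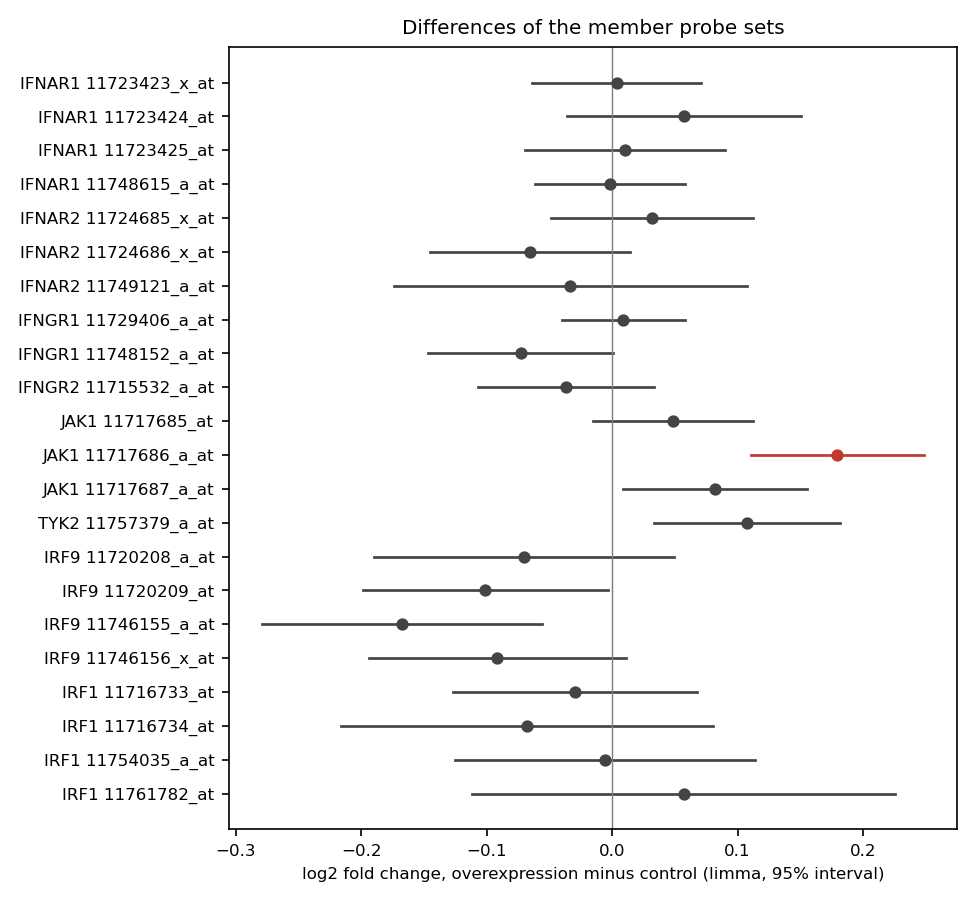
Log2 fold change (labelled overexpression minus labelled control) of the 22 member probe sets with its 95% interval from limma; red marks the single called probe set. All 4 kinase probe sets lie above 0 and all 4 IRF9 probe sets below it, and the receptor intervals stay between -0.17 and 0.15.

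IRF9, the DNA-binding partner of the STAT proteins at ISRE, gave lower readings on all 4 of its probe sets, none of which was called. Probe set 11746155_a_at read 7.48, 7.55 and 7.43 in the arrays labelled overexpression and 7.58, 7.75 and 7.63 in the control arrays. Its groups did not overlap, although the second control array lay well above the others. The difference was -0.17 ± 0.052 (SE), with a 95% interval of -0.28 to -0.06 (limma, adjusted p = 0.151; unadjusted p = 0.00603). Without the second control array it was -0.12.

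The brightest IRF9 probe set, 11720209_at, read 8.04, 8.03 and 8.06 against 8.14, 8.24 and 8.05. The third control array fell within the range of the overexpression arrays, so the groups overlapped, and the difference was -0.10 (limma, adjusted p = 0.365). It was -0.05 without the second control array and -0.15 without the third. The remaining 11746156_x_at and 11720208_a_at gave -0.09 and -0.07 with overlapping groups. Among all 1782 genes with 4 probe sets, 15% had all 4 below 0. The 4 probe sets of IRF9 read the same 6 RNA samples and are not replicates of the condition.

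IRF1, a transcription factor made in response to interferon gamma, showed no common direction. Its brightest probe set, 11716733_at, read 7.73, 7.82 and 7.90 in the arrays labelled overexpression and 7.85, 7.83 and 7.84 in the control arrays. The overexpression arrays lay on both sides of the control arrays, and the difference was -0.03 with a 95% interval of -0.13 to 0.07 (limma, adjusted p = 0.853). The other IRF1 probe sets gave -0.07, -0.0058 and 0.06.

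**Figure D3:**
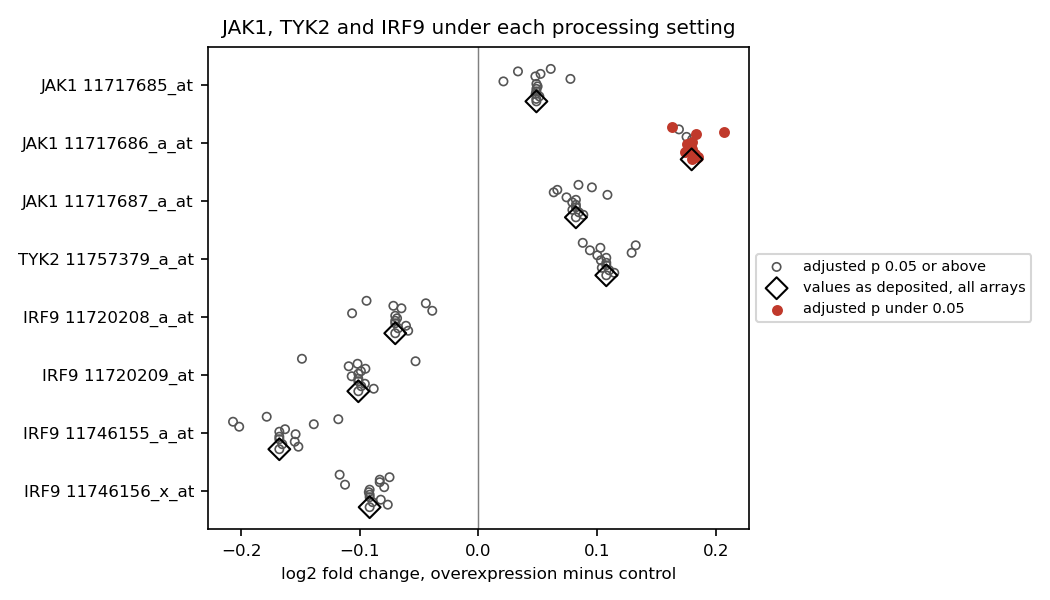
Log2 fold change of the JAK1, TYK2 and IRF9 probe sets under each processing setting, with values as deposited as diamonds and red points at an adjusted p under 0.05. Each probe set keeps its sign in all 13 alternatives, and JAK1 11717686_a_at is the single one with red points.

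With 1 probe set per gene, the one with the highest mean that is not of the _x_at type where possible, none of the 8 members was called, against 2.16% of 18132 genes (limma). For IFNAR2 the rule took 11749121_a_at, its dimmest probe set, since its others are of the _x_at type. TYK2 and IRF9 were the 2 members with an unadjusted p under 0.05, against 13.9% of all genes. The genes whose brightest readings ran most like those of JAK1 over the 6 arrays were VEGFC, a lymphatic growth factor, with a Pearson r of 0.988, SLC4A1AP (0.983), the glutaredoxin GLRX3 (0.973), the water and glycerol channel AQP7 (0.972) and the mitochondrial deacylase SIRT5 (0.970). These are the 5 highest of 9765 genes over only 6 arrays in 2 groups, so they are a description, and none of the 5 was called.

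The other genes of the pathway were taken from lists and tested in the same fit over genes. None of 17 interferon genes was called: IFNA14 gave 0.14, IFNA6 gave 0.12 and IFNB1, the interferon beta gene, gave -0.01. All 17 averaged below 6.19, the median level of all probe sets. Means in the labelled overexpression and control arrays were 5.60 and 5.45 for IFNA14, 3.28 and 3.17 for IFNA6, and 3.46 and 3.48 for IFNB1. The IFNA14 and IFNA6 probe sets are of the _x_at type. Whether such levels exceed background was not assessed, so the missing calls do not show unchanged interferon mRNA. Among 8 further receptors of the same class, F3, the coagulation receptor tissue factor, rose by 0.15 (limma, adjusted p = 0.0301). Its call was lost without a trend (0.248), with the replicate block (0.0913), and without the first (0.124) or second (0.128) array labelled overexpression or the first (0.138) or second (0.0997) control array. Neither of the other JAK kinases was called, with JAK2 at -0.10 (-0.04 by the mean of its probe sets) and JAK3 at 0.03 (-0.04 to 0.09 with 1 array left out). None of 5 other STAT genes was called, with STAT5B at -0.08 and STAT5A at 0.07. By the mean of all probe sets these became -0.0025 and -0.01. None of 6 other IRF genes was called either, with IRF8 at 0.11 and IRF7, the amplifier of interferon production, at 0.09. Leaving out 1 array moved IRF8 between 0.02 (without the third control array) and 0.25 (without the first), and IRF7 down to 0.03 (without the third array labelled overexpression). Of 21 inhibitors of the pathway listed 20 were measured, and none was called. SOCS2, a suppressor of cytokine signalling, came nearest with 5.80, 5.85 and 5.78 against 6.10, 6.03 and 6.02, a difference of -0.24 without overlap (limma, adjusted p = 0.0710). SOCS6 came next with -0.15 and overlapping groups (limma, adjusted p = 0.415), and gave -0.23 to -0.08 with 1 array left out.

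Most calls in the pathway fell among the genes downstream of the type I receptor. Of 48 type I interferon targets 12 fell and 1 rose (limma over genes), against 1.2% of all genes called lower and 0.96% called higher. The list had a median difference of -0.05, against 0.0085 for all genes. IFI27, an interferon-induced mitochondrial protein, read 7.26, 7.12 and 7.17 in the arrays labelled overexpression and 8.94, 9.03 and 8.93 in the control arrays, and fell by 1.78. IFI6 fell by 0.77, the membrane protein IFITM1 by 0.61 and OASL by 0.34. These 4 genes had the lowest p of the list. UBE2L6 fell by more than OASL, by 0.54 (limma over genes, adjusted p = 0.00038). The one that rose was TRIM22, an antiviral ubiquitin ligase, by 0.15 (limma, adjusted p = 0.0449), named after its value was seen. TRIM22 lost its call in 8 of 14 alternatives: without a trend (0.262), with the replicate block (0.113), by the mean of all probe sets (0.147) and when any array but the third labelled overexpression was left out (0.0792 to 0.231). Counted over all 8 lists, 12 genes fell and 2 rose; without a trend 4 fell and none rose (IFI27, IFI6, IFITM1 and UBE2L6, with OASL losing its call at an adjusted p of 0.0771), and without the first array labelled overexpression 7 fell and none rose. Several of these genes were known from earlier results of the same arrays, so the count is no independent support.

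None of 26 targets of interferon gamma was called, with a median of -0.03 and with the immunoproteasome subunits PSMB8 and PSMB9 at -0.12 each (limma, adjusted p = 0.108 and 0.286). By the mean of all its probe sets PSMB9 gave -0.0094, and without the second control array -0.07. An unadjusted p under 0.05 was reached by 3 of the 26, or 11.5%, against 13.9% of all genes. The difference between the lists of targets was not tested. Levels among the 26 gamma targets varied widely. Mean readings were 2.64 and 2.72 for GBP1, 3.75 and 3.77 for CXCL9 and 3.91 and 3.83 for CXCL10, labelled overexpression first. Those for PSMB8 were 8.65 and 8.77, and those for WARS1 10.37 and 10.43. Whether the low readings exceed background was not assessed, so the missing calls among the dim genes do not show unchanged expression. An ISRE match stood in 22 of the 40 promoters found for type I targets and in 9 of the 18 found for gamma targets. None of the 8 member windows held one, but that of IFNGR2 lay inside its gene and that of IFNGR1 partly so.

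**Figure D4:**
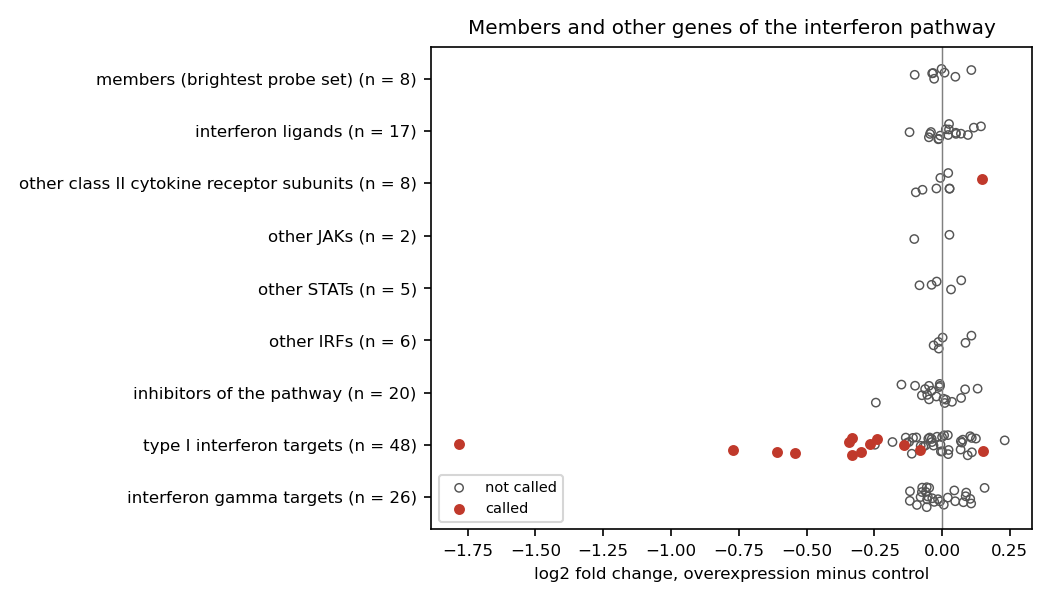
Log2 fold change (labelled overexpression minus labelled control) of the 8 members and of the genes on 8 other lists of the pathway. Each gene is shown by its brightest probe set that is not of the _x_at type where possible. Filled red points were called. The points of the members and the other signalling genes lie between -0.24 (SOCS2) and 0.15 (F3, called). Of the 48 type I interferon targets 12 are called below 0, reaching -1.78, and 1 above it, and the median of that list is -0.05.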

How the data were processed

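The data were 1 deposited table of 49395 probe sets by 6 arrays. The submitters' processing notes name MAS5 as the source of its log2 values, without a version or setting. Whether the deposited values came from MAS5 or from another summary method was not tested. The log2 scale is inferred from the range of 2.15 to 14.33. The sources used here give neither the scaling between arrays nor a genome build. Low values and small fold changes depend on the summary method, and no detection calls were used.

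The platform annotation named the probe sets, and 44967 of 44988 single-gene probe sets matched current gene numbers. Arrays labelled overexpression were set against arrays labelled control in limma 3.58.1 under R 4.3.3, by lmFit and then eBayes with a mean-variance trend and with no other term. The p-values are two-sided and adjusted by Benjamini-Hochberg over 49293 probe sets or 18132 genes. The fit was also run on simulated data, and no result of that run is relied on here. Named genes are all members, CADM1, each list's called genes (the 4 of lowest p where more were called, and for lists without a call the 2 of lowest p) and the 5 genes most like JAK1. IFNB1, IL10RB, TRIM22, UBE2L6, the gamma targets quoted for their level and the markers quoted were picked after their values were seen. Members and lists were chosen with earlier results of these data known. Plots used matplotlib 3.10.9 (Python 3.11.15). Alternatives were quantile normalization, median centring, a linear offset of 16, a filter on dim probe sets, no trend, array weights, a replicate block, leaving out each array, and the mean of all probe sets.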

Additional observations from a re-analysis of the deposited data

How the results depend on the processing

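One member probe set was called in 9 of 13 alternatives and none in the others; leaving out each array gave 0 to 1. Without a trend 0 member probe sets and 4 other pathway genes were called, against 1 and 14 in the main comparison. Leaving out each array gave 7 to 15 other pathway genes. The cause was not tested. By the mean of all probe sets 1 member gene was called, JAK1, against 0 by the brightest probe set. With the replicate number as a block, 1 member probe set (JAK1, adjusted p = 0.0391) and 9 other pathway genes were called, and F3 (adjusted p = 0.0913) and TRIM22 (0.113) were among those that lost their calls. All probe sets called fell from 735 to 377 under the block. Same-numbered arrays correlated in their deviations by 0.13, -0.07 and -0.07, so the numbers were not taken to pair them. Signs changed only in uncalled values near 0. IRF1 11754035_a_at gave 0.0029 after quantile normalization and IFNAR1 11748615_a_at 0.00042 after median centring. STAT5A gave -0.012 by the mean of all probe sets. Leaving out each array gave -0.026 to 0.019 for IFNAR1 11723423_x_at, -0.00012 to 0.029 for IFNAR1 11723425_at, -0.014 to 0.013 for IFNAR1 11748615_a_at, -0.086 to 0.018 for IFNAR2 11749121_a_at, -0.072 to 0.014 for IRF1 11716733_at, -0.047 to 0.018 for IRF1 11754035_a_at and -0.036 to 0.087 for JAK3. All probe sets called numbered 17 without a trend, 1086 with the filter on dim probe sets, and 241 to 692 with an array left out. Under that filter 20 of 22 member probe sets were tested. With 3 arrays a group and no detection calls, the number of arrays limits the precision.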
